A study of Mus musculus with 12 samples.

Results

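The complement system genes are 35 genes of the deposited liver count table, taken by symbol from a list of complement components, their regulators and the receptors of their fragments. All 35 had a row among the 15140 genes of the table, each symbol once, and all 35 passed the filter on low counts, the least abundant with 328 reads summed over the 12 libraries. They were set in 7 classes by role: 4 genes of the classical route (C1ra, C1s1, C2, C4b), 7 of the lectin route (Masp1, Masp2, Mbl1, Mbl2, Fcna, Colec10, Colec11), 4 of C3 and the alternative route (C3, Cfb, Cfd, Cfp), 7 terminal components (Hc, C6, C7, C8a, C8b, C8g, C9), 8 soluble regulators (Cfi, C4bp, Serping1, Clu, Vtn, Cfhr2, Cpn1, Cpn2), 3 membrane regulators (Cd55, Cd46, Cd59a) and 2 receptors of the anaphylatoxins (C3ar1, C5ar1).

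Poly(A)-selected liver RNA was sequenced from male mice that had eaten a high-fat diet (60% of energy from fat) for 3 months, beginning at 7 to 8 weeks of age. The 6 KO libraries came from mice whose Phb1 gene was deleted in adipocytes, and the 6 WT libraries from wild-type mice on the same diet. Prohibitin 1, the product of the deleted gene (symbol Phb in the table), is a scaffold protein of the inner mitochondrial membrane. The promoter that drove the deletion is not given in the sources used here, and no label ties a library to an animal or a preparation day, so each p-value speaks of a spread among libraries that may be technical. Library totals ran from 34121087 to 37973022 counts in KO and from 30348123 to 40828767 in WT.

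Complement is a cascade of plasma proteins that marks microbes and damaged cells, draws in leukocytes and can pierce membranes. The classical route starts when C1q, bound to antibody or other ligands, activates the proteases C1r and C1s. The lectin route starts when mannose-binding lectins, ficolins or collectins bind sugars and activate the MASP proteases, and the alternative route runs on C3 itself with factor B, factor D and the stabiliser properdin. All of them cleave C3 and then C5, which releases the anaphylatoxins and starts assembly of the membrane attack complex from C5b, C6, C7, C8 and C9. Hepatocytes secrete most of these proteins, while C1q, properdin and ficolin A come chiefly from macrophages and other myeloid cells, and factor D from adipocytes.

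The liver held the labelled tissue's markers. Of 12 hepatocyte markers, 11 had a row, and their summed level was 79920.4 to 103685 CPM (counts scaled to a common library size by TMM, per 1e6) in KO and 79053 to 109855 CPM in WT, with 0 of 11 called (2 at an unadjusted p under 0.05, and 1 by DESeq2). Phb stood at 88.6 to 100.4 CPM in KO and at 80.0 to 91.2 CPM in WT (log2 fold change 0.15 ± 0.05 SE, edgeR adjusted p = 0.144), and since the deletion was directed to adipocytes, its liver level cannot show which mice carried the deletion.

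Of the 35 complement genes, 2 passed the test of KO against WT, both lower in KO, namely C3 and Cfp (edgeR quasi-likelihood F test, p adjusted by Benjamini-Hochberg over 15000 genes and under 0.05). The background was 2.64% of all genes called, or 396 of 15000, with 1.49% called lower in KO and 1.15% called higher. At an unadjusted p under 0.05 stood 7 of the 35, or 20%, against 21.2% of all genes. Log2 fold changes of the 35 had a median of -0.02, with 16 positive and 19 negative, and those of all tested genes a median of 0.0031. The 2 calls were 5.71% of the 35, a share that no test compared with the background, so the results concern single genes and not the set. DESeq2 called 4 of the 35, C2 and Fcna beside C3 and Cfp, against 8.24% of all genes. In the authors' deposited table, 2 of the 35, Fcna and Cfp, had an adjusted p under 0.05, and C3 had one of 0.157. Over all genes, 834 of the 14947 with an authors' adjusted p were under 0.05.

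**Figure D1:**
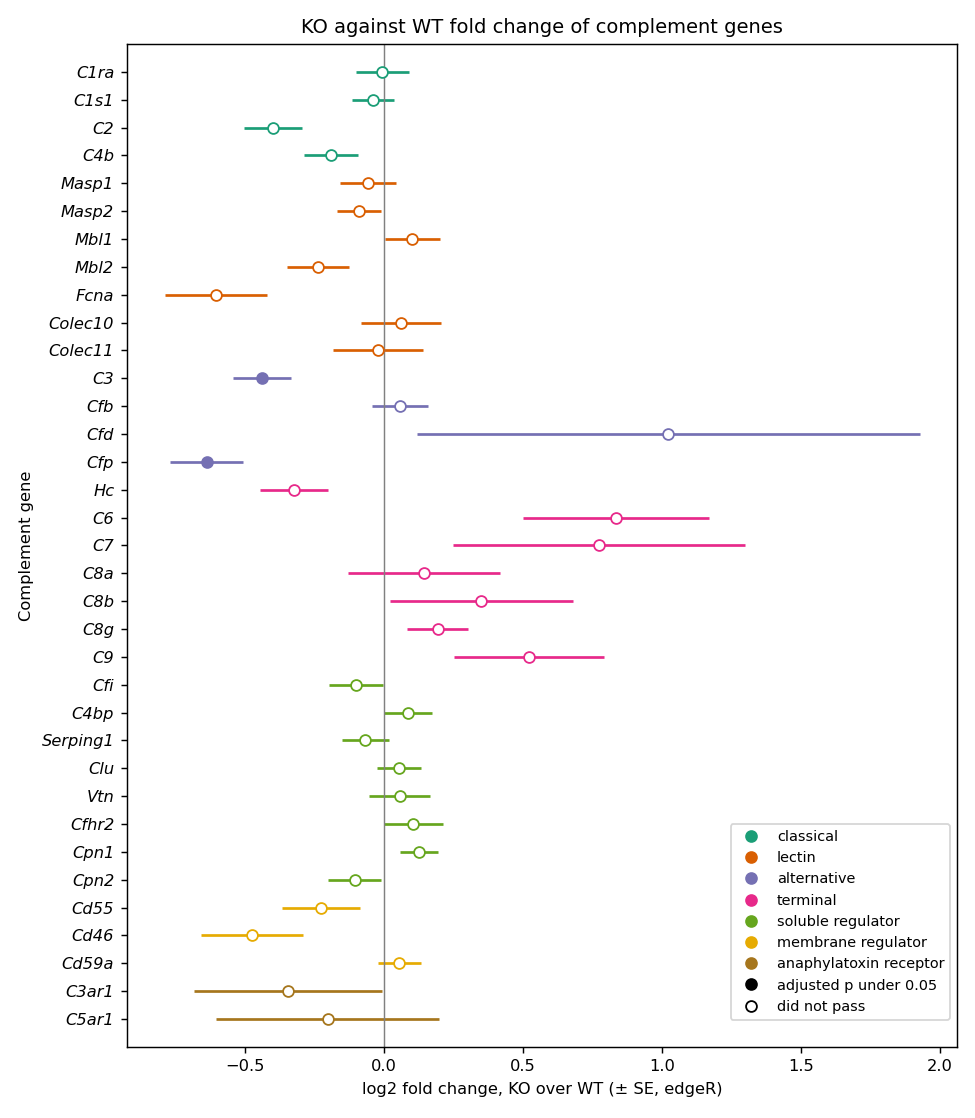
Log2 fold change of KO over WT (horizontal axis) for each of the 35 complement genes, ordered by role, with the standard error as a bar. Filled points passed the edgeR test, which holds for C3 at -0.44 and Cfp at -0.64, and the widest bars belong to Cfd and C7.

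Complement messages spanned a wide range of levels per length. On the TPM scale, which divides counts by exon length, C3 averaged 2109 ± 258 TPM in KO and 3015 ± 430.2 TPM in WT (SD, n = 6 each). Vitronectin (Vtn), which stops the terminal complex from entering membranes, averaged 2517 ± 257 TPM in KO and 2566 ± 249 TPM in WT. Clusterin (Clu), a second fluid-phase inhibitor of that complex, averaged 1088 ± 115 TPM in KO and 1107 ± 149.9 TPM in WT. C3 and Vtn stood first and second over all 12 libraries at 2562 and 2541 TPM, a gap smaller than the spread in either group, and their order was not the same in KO and WT. Serping1 (763 TPM), C4b (689 TPM) and Mbl2 (595 TPM) followed Clu in the order over all libraries. Factor B and the membrane regulator Cd55 lay far lower, at 6.05 and 4.17 TPM. C3ar1, C5ar1, C7 and Cd46 closed the order at 1.63, 1.38, 0.638 and 0.476 TPM. Cd46 is expressed mainly in testis in rodents, and Cr1l, which encodes the widely expressed rodent regulator Crry, stood at 9.42 ± 1.20 TPM in KO and 9.66 ± 0.987 TPM in WT (SD, n = 6 each).

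**Figure D2:**
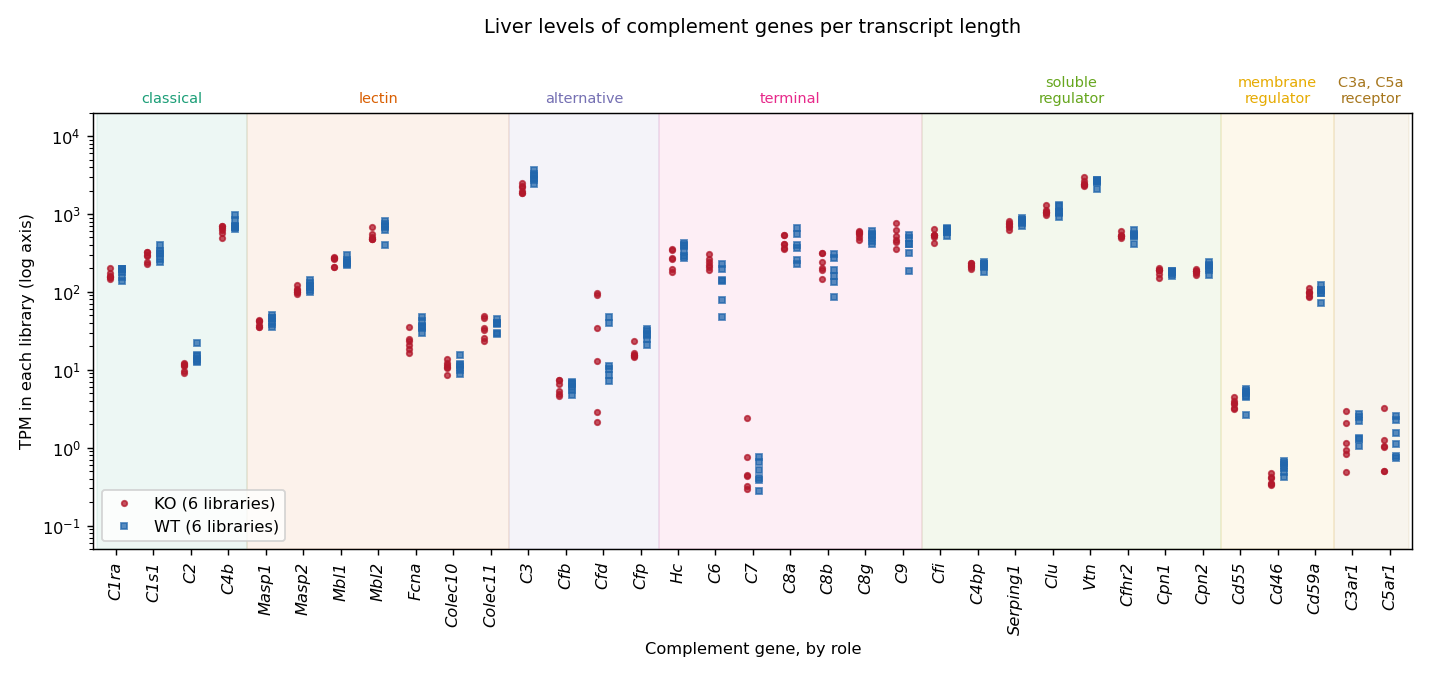
TPM of each complement gene in each library on a logarithmic axis, grouped by role, with the KO points left of the WT points. The averages run from 2562 TPM for C3 and 2541 TPM for Vtn to 0.638 TPM for C7 and 0.476 TPM for Cd46.

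The message of C3, the protein on which all routes converge (chr17:57203970-57228136, minus strand, GRCm38), fell in KO. Its lowest, median and highest levels were 4244, 4786 and 5583 CPM in KO, against 5370.1, 6558 and 7747 CPM in WT. KO library 5 was the one KO library inside the WT range, above WT library 3, and the other 5 lay below every WT library. The means were 4864 ± 495 CPM in KO and 6597 ± 891 CPM in WT (SD, n = 6 each), a log2 fold change of -0.44 ± 0.10 (SE), that is 26.3% lower, with an edgeR adjusted p of 0.0420. The call rested on single libraries: it was kept without KO library 5, WT library 3 or WT library 6, and lost without any one of the other 9 libraries (adjusted p 0.0360 to 0.0956 over the 12 fits, log2 fold change -0.49 to -0.39).

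The summed complement counts were lower in KO on average, and the net sum without C3 was close to level. The 35 genes took 1.81% ± 0.119 of all counts in KO libraries and 1.99% ± 0.155 in WT libraries (SD, n = 6 each). Without C3 the other 34 genes took 1.33% ± 0.0811 in KO and 1.32% ± 0.129 in WT. Within that sum, classes differed in opposite directions. The classical genes took 0.221% ± 0.0214 in KO and 0.249% ± 0.0255 in WT, and the terminal genes 0.308% ± 0.0405 in KO and 0.277% ± 0.0739 in WT. C3 supplied 26.7% ± 1.02 of the complement counts in KO, with a range of 25.3% to 27.7%, and 33.4% ± 3.74 in WT, with a range of 27.4% to 37.5%. These shares are descriptions with no test.

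Properdin, encoded by Cfp (chrX:20925454-20931555, minus strand, GRCm38), stabilises the C3 convertase of the alternative route, and the Cfp message fell in KO as well. Cfp held 9.82, 12.2 and 18.4 CPM as its lowest, median and highest KO level, against 17.6, 20.6 and 23.4 CPM in WT. KO library 4 lay inside the WT range, and the other 5 were under every WT library. Its means were 13.1 ± 3.00 CPM in KO and 20.4 ± 2.15 CPM in WT (SD, n = 6 each), a log2 fold change of -0.64 ± 0.13 (SE; edgeR adjusted p = 0.0267), that is 35.8% lower. The adjusted p ran from 0.00813 to 0.0710 when each library was left out in turn, and the call was lost without KO library 6, WT library 2, WT library 4 or WT library 5. In whole liver, fewer cells of a type and less RNA per cell cannot be told apart.

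The remaining genes of the alternative route did not pass the test. Factor B (Cfb), the catalytic subunit of the alternative convertase, held 6.46 to 9.01 CPM in KO and 6.56 to 7.95 CPM in WT, a log2 fold change of 0.06 ± 0.10 (SE; edgeR adjusted p = 0.785). Factor D (Cfd, also called adipsin), the protease that cleaves factor B and a product of fat cells, varied far more between libraries than between genotypes. Cfd held 41.0, 4.45, 15.9, 37.5, 0.863 and 1.30 CPM in KO libraries 1 to 6, and 18.1, 17.3, 4.04, 4.05, 2.98 and 3.21 CPM in WT libraries 1 to 6. The KO libraries reached both above and below the WT libraries, a 47.5-fold span over all 12, and the log2 fold change was 1.02 ± 0.91 (SE; edgeR adjusted p = 0.555). Of 12 adipocyte markers, 8 had a row, with 0 of 8 called (1 at an unadjusted p under 0.05, and 0 by DESeq2), while Adipoq, Plin1, Lep and Retn were not analysed here. Their summed level, which genes with liver expression such as Car3 and Pck1 share, was 4605 to 8207 CPM in KO and 3840.2 to 6293 CPM in WT. Of the 8, 5 had a positive log2 fold change and 3 a negative one, with a median of 0.14. The lipid droplet gene Cidec held 3.21 to 95.2 CPM in KO and 3.96 to 25.0 CPM in WT. The fatty acid binding gene Fabp4 held 5.50 to 13.9 CPM in KO and 5.37 to 10.2 CPM in WT. Adrb3 went the other way, with 2.53 to 11.9 CPM in KO and 4.22 to 19.0 CPM in WT. The part of fat cells in the level of Cfd was not tested.

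The promoters of C3, Cfp and Fcna are shown because these genes gave a call in at least one of the edgeR, DESeq2 or authors' results and had an entry in the promoter table (RefSeq, GRCm38.p6, 250 bases before to 50 bases after the annotated start, minus strand in each case, printed 5′ to 3′ along the gene). The capitals mark matches, on either strand, to TTGCNNAA, a C/EBP motif, in C3 and to GAGGAA or its reverse complement TTCCTC, a PU.1 core, in Cfp and Fcna. The windows lie at chr17:57228087-57228386 for C3, at chrX:20931506-20931805 for Cfp and at chr2:25627925-25628224 for Fcna.
C3: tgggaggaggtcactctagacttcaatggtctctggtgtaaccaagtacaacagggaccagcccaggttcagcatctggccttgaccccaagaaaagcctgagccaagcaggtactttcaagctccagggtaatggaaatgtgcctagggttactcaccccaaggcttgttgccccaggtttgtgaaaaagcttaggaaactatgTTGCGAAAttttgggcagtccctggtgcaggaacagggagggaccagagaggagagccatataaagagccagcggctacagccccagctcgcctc
Cfp: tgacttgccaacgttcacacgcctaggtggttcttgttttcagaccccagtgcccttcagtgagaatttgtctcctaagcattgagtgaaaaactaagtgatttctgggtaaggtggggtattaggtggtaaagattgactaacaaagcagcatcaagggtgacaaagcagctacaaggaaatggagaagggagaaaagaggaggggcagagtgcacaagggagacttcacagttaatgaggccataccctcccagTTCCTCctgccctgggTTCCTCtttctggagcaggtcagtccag
Fcna: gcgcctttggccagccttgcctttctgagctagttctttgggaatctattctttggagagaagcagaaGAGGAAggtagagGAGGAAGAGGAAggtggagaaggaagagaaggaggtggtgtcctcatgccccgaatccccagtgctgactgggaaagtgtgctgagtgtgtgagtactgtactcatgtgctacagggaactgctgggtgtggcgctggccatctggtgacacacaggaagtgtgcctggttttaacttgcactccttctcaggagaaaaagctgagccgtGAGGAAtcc

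C3 held 1 C/EBP match, whose first base lies 45 bases before the start, and Cfp held 2 matches to the PU.1 core, 6 and 22 bases after it. Fcna held 4, with 3 of them before the start, at least 163 bases away, and 1 beginning 41 bases after it. Of the 32851 promoters in the table, 10.8% held the C/EBP motif and 28.3% the PU.1 core, so a match is common. Of the 35 complement genes, 27 matched a promoter, and 5 of these held the C/EBP motif and 6 the PU.1 core. The interferon-linked motifs GAS (TTCNNNGAA) and ISRE (GAAA, any 2 bases, GAAA) were found in 8 and 4 of the 27, against 8.3% and 3.44% of all promoters. None of C3, Cfp and Fcna held either of them in this window. The member counts are per gene, and 2 of the 27 had more than 1 promoter. The percentages are per promoter, and no test compared the counts with them. A match describes letters and is not a bound site.

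**Figure D3:**
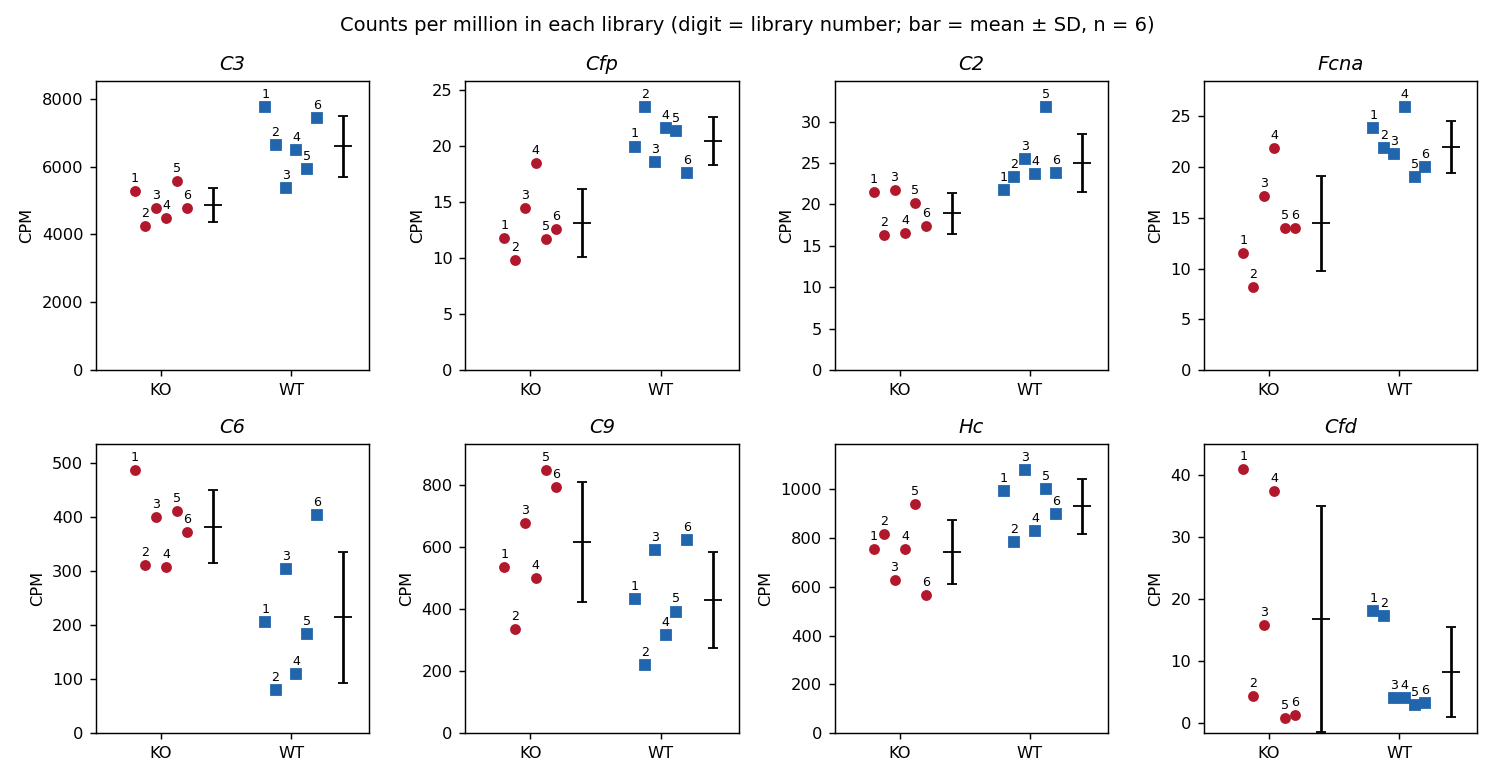
CPM of C3, Cfp, C2, Fcna, C6, C9, Hc and Cfd in every library, 1 panel per gene, with KO left and WT right, digits giving the library number and bars the mean ± SD (n = 6 each). Among these 8, C2 is the one gene whose groups do not overlap, C3, Cfp and Fcna each have 1 KO library inside the WT range, and C6 has its lowest values in WT libraries 2 and 4. The SD bar of Cfd in KO reaches below 0.

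Among the classical genes, the whole KO group of C2 lay below the whole WT group, although its adjusted p missed the threshold. C2 encodes the protease that forms the classical and lectin C3 convertase together with C4b, and it lies next to Cfb on chromosome 17. Its lowest, median and highest levels were 16.3, 18.7 and 21.7 CPM in KO, against 21.8, 23.8 and 31.7 CPM in WT. The groups did not overlap, but the highest KO library and the lowest WT library were almost level. C2 was the 1 of 35 members whose groups did not overlap, against 2.53% of all genes and 1.24% with KO lower. The log2 fold change was -0.40 ± 0.10 (SE; edgeR adjusted p = 0.0567), and DESeq2 gave an adjusted p of 0.0137. The exons of C2 overlap those of Zbtb12 on the opposite strand over 161 of 3872 exon bases. The strand setting of the counting is not given in the sources used here, so the reads of C2 are uncertain to that extent.

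The other classical genes had smaller differences and did not pass the test. C4b, whose product carries the convertase, averaged 1591 ± 192 CPM in KO and 1818 ± 175 CPM in WT (SD, n = 6 each), a log2 fold change of -0.19 ± 0.10 (SE; edgeR adjusted p = 0.271). It has a close copy, C4a, at 119 ± 48.4 CPM in KO and 111 ± 37.4 CPM in WT, with which reads may have been shared. The proteases of the C1 complex were close to level: C1ra averaged 223 ± 28.7 CPM in KO and 224 ± 21.9 CPM in WT, and C1s1 averaged 397 ± 31.0 CPM in KO and 408 ± 31.4 CPM in WT. Their log2 fold changes were -0.01 ± 0.10 and -0.04 ± 0.07 (SE), and each has a close copy as well (C1rb, C1s2).

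Of the 7 lectin genes, 0 passed the edgeR test, 1 stood at an unadjusted p under 0.05 and DESeq2 called 1, in each case Fcna. Ficolin A, the product of Fcna, recognises acetylated sugars and is made by macrophages in mice. Fcna held 8.21, 14.0 and 21.8 CPM as its lowest, median and highest KO level, against 19.0, 21.6 and 25.9 CPM in WT. KO library 4 lay inside the WT range and the other 5 KO libraries below it, the same arrangement as for Cfp. Its log2 fold change was -0.61 ± 0.18 (SE; edgeR adjusted p = 0.0907), and with each library left out in turn it ran from -0.77 to -0.49 with an adjusted p of 0.0311 to 0.192. The test was passed in 1 of these 12 fits, the one without KO library 4.

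The mannose-binding lectins had fold changes of opposite sign, and neither passed the test. Mbl2 averaged 257 ± 16.0 CPM in KO and 303 ± 55.0 CPM in WT (SD, n = 6 each), a log2 fold change of -0.24 ± 0.11 (SE; edgeR adjusted p = 0.241), and with each library left out in turn it ran from -0.32 to -0.18 with an adjusted p of 0.0477 to 0.416. Mbl2 passed in 1 of these 12 fits, the one without WT library 6, which held its lowest level. Mbl1 averaged 177 ± 23.9 CPM in KO and 165 ± 19.1 CPM in WT, a log2 fold change of 0.10 ± 0.10 (SE). The proteases that these lectins activate had log2 fold changes of -0.06 ± 0.10 for Masp1 and -0.09 ± 0.08 for Masp2 (SE), and the exons of Masp2 overlap those of Tardbp on the opposite strand. The collectins Colec10 and Colec11 held 17.8 to 28.7 and 16.6 to 33.7 CPM in KO, against 18.3 to 30.7 and 19.8 to 33.8 CPM in WT.

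The 7 terminal components divided between Hc, with a negative fold change, and the other 6, with positive ones, and 0 passed the edgeR test. At an unadjusted p under 0.05 stood 2 of them, Hc and C6, and DESeq2 called 0. Hc encodes C5, the source of the anaphylatoxin C5a and of C5b. Its lowest, median and highest levels were 566, 756 and 939 CPM in KO, against 784, 946 and 1079.5 CPM in WT. In 4 KO libraries Hc was under its level in every WT library, and the log2 fold change was -0.33 ± 0.12 (SE; edgeR adjusted p = 0.152). Exons of Hc overlap those of Gm13449 on the opposite strand.

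C6, C8a, C8b and C9, which build the membrane attack complex on C5b, were the most variable of the abundant complement genes. C6 held 309, 387 and 488 CPM as its lowest, median and highest KO level, against 79.9, 195 and 404 CPM in WT. The KO libraries stayed within a narrow range, while WT libraries 2 and 4 held 79.9 and 109.6 CPM and WT library 6 held 404 CPM. Its log2 fold change was 0.83 ± 0.34 (SE; edgeR adjusted p = 0.183). C9, the subunit that forms the ring of the pore, held 337 to 849.9 CPM in KO and 218 to 624 CPM in WT, a log2 fold change of 0.52 ± 0.27 (SE; edgeR adjusted p = 0.292). C8a and C8b, which encode 2 chains of C8 and lie side by side on chromosome 4, had log2 fold changes of 0.14 ± 0.27 and 0.35 ± 0.33 (SE). For both, the highest library and the lowest were WT libraries.

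WT libraries 2 and 4 held the lowest joint level of these 4 genes. The mean of log2 CPM over C6, C8a, C8b and C9, relative to each gene's mean over 12 libraries, was -0.21 to 0.63 in KO. In WT it was -1.19 in library 2, -0.86 in library 4, -0.41 in library 5 and 0.66 in library 6. These 4 genes were grouped after their values were seen. With WT libraries 2 and 4 left out together, an alternative chosen after seeing the data, the log2 fold changes were 0.48 ± 0.22 for C6, 0.27 ± 0.24 for C9, 0.06 ± 0.30 for C8b and -0.13 ± 0.23 for C8a (SE). Genes that are higher in male than in female mouse liver were low in the same libraries: over 12 such genes the level was -0.18 to 1.03 in KO, -2.17 in WT library 2, -1.48 in WT library 4 and 0.75 in WT library 6. Their summed level was 11213 to 23552 CPM in KO and 6406 to 24480.2 CPM in WT, 1 of 12 was called (Elovl3, higher in KO), and their median log2 fold change was 0.67. The part of this state of the libraries in the terminal components was not tested.

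C8g and C7 complete the class. C8g, which encodes the small lipocalin chain of C8, averaged 369 ± 58.3 CPM in KO and 323 ± 38.4 CPM in WT (SD, n = 6 each), a log2 fold change of 0.19 ± 0.11 (SE; edgeR adjusted p = 0.335). C7, which in humans is made largely outside hepatocytes, held 0.362 to 0.922 CPM in 5 KO libraries, 3.16 CPM in KO library 6 and 0.303 to 0.758 CPM in WT. Its log2 fold change was 0.77 ± 0.52 (SE; edgeR adjusted p = 0.419) and turned to -0.10 ± 0.31 without KO library 6.

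**Figure D4:**
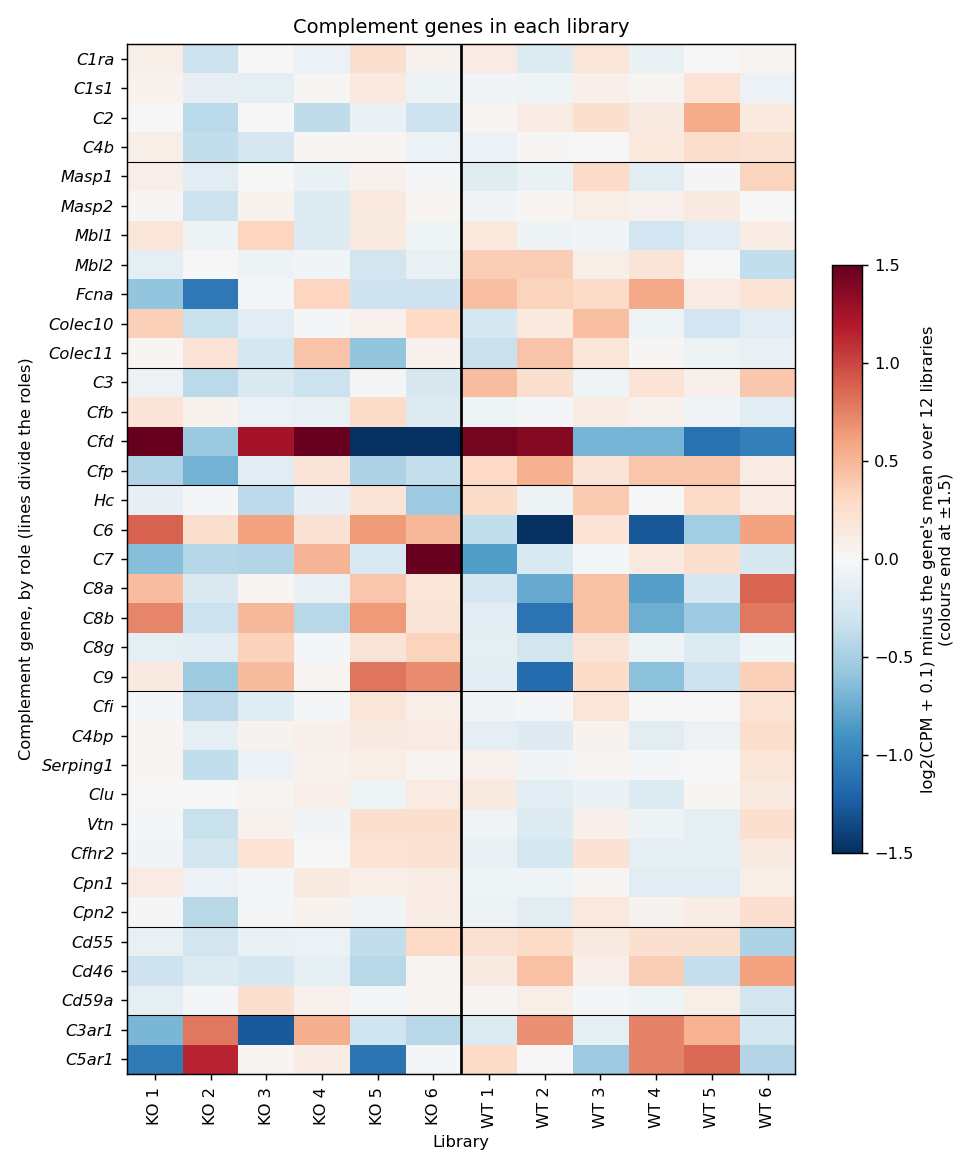
Log2(CPM + 0.1) of each complement gene minus its mean over the 12 libraries, KO libraries left and WT libraries right, genes ordered by role, with colours ending at -1.5 and 1.5. C3, Cfp, C2 and Fcna are lower across most KO libraries, and C6, C8a, C8b and C9 are low in WT libraries 2 and 4.

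The soluble regulators had small fold changes throughout. Of the 8, 0 passed the edgeR test, 0 stood at an unadjusted p under 0.05 and DESeq2 called 0, and their log2 fold changes lay between -0.11 and 0.12 with SE of 0.07 to 0.11. Serping1, the C1 inhibitor, averaged 757 ± 85.0 CPM in KO and 793 ± 46.5 CPM in WT (SD, n = 6 each). Factor I (Cfi), the protease that degrades C3b and C4b, averaged 531 ± 73.1 CPM in KO and 569.5 ± 44.6 CPM in WT. C4bp, its cofactor for C4b, averaged 661 ± 42.8 CPM in KO and 623 ± 79.3 CPM in WT. Cfhr2 averaged 464 ± 60.1 CPM in KO and 431 ± 58.1 CPM in WT, and it has close copies.

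Vtn and Clu held 1775 to 2658 and 1569 to 1787 CPM in KO, against 1952 to 2647 and 1425 to 1803 CPM in WT. The subunits of carboxypeptidase N, which inactivates anaphylatoxins, had opposite signs: Cpn1 had a log2 fold change of 0.12 ± 0.07 and Cpn2 of -0.11 ± 0.10 (SE). Of the 8 genes, 6 had a ratio of highest to lowest library under 1.5, as had 12 of the 35 members and 4531 of the 15000 genes tested.

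Of the 3 membrane regulators, 0 passed the edgeR test, 1 stood at an unadjusted p under 0.05 and DESeq2 called 0. Cd59a, which blocks the last step of pore assembly, held 70.2 to 91.3 CPM in KO and 63.7 to 82.4 CPM in WT, a log2 fold change of 0.05 ± 0.08 (SE). Cd55, which speeds the decay of convertases, held 6.64, 8.01 and 10.6 CPM as its lowest, median and highest KO level, against 6.22, 10.1 and 10.5 CPM in WT. Its log2 fold change was -0.23 ± 0.14 (SE; edgeR adjusted p = 0.369), and WT library 6 stood apart from the other 5 WT libraries, which held at least 9.51 CPM. Cd46, a cofactor for factor I, held 1.13 to 1.59 CPM in KO and 1.19 to 2.40 CPM in WT, a log2 fold change of -0.48 ± 0.18 (SE; edgeR adjusted p = 0.164). The exons of Cd46 overlap those of A330023F24Rik on the opposite strand, so its reads are uncertain.

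The anaphylatoxin receptors, carried by myeloid cells, were scarce and spread widely. C3ar1, the receptor of C3a, held 1.08 to 4.74 CPM in KO and 2.23 to 4.59 CPM in WT, a log2 fold change of -0.35 ± 0.34 (SE; edgeR adjusted p = 0.600). C5ar1, the receptor of C5a, held 0.566 to 3.03 CPM in KO and 0.878 to 2.47 CPM in WT, a log2 fold change of -0.20 ± 0.40 (SE; edgeR adjusted p = 0.811). KO library 2 held the highest level of both receptors and the lowest level of 13 other complement genes, C3, Cfp, C2 and Fcna among them.

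Of 24 further complement genes listed as related, 20 had a row, and 1 passed the edgeR test, Vsig4, which was lower in KO. At an unadjusted p under 0.05 stood 5 of the 20, and DESeq2 called 4, namely C1qa, C1qb, C1qc and Vsig4. In the authors' deposited table, 3 of them had an adjusted p under 0.05, namely C1qb, C1qc and Vsig4. Vsig4 encodes CRIg, the receptor through which resident liver macrophages take up particles coated with C3 fragments. It held 7.41, 12.2 and 18.2 CPM as its lowest, median and highest KO level, against 16.7, 20.6 and 27.5 CPM in WT. Its log2 fold change was -0.79 ± 0.18 (SE; edgeR adjusted p = 0.0368), with 5 KO libraries under every WT library. The call was kept in 5 of the 12 fits that left out 1 library (without KO libraries 2, 3 or 4 or WT libraries 3 or 6) and lost in the other 7, with an adjusted p of 0.0166 to 0.0887.

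The 3 chains of C1q had fold changes of the same size and sign. C1qa averaged 26.8 ± 6.36 CPM in KO and 38.1 ± 7.69 CPM in WT (SD, n = 6 each), a log2 fold change of -0.51 ± 0.16 (SE; edgeR adjusted p = 0.0994). C1qb averaged 26.0 ± 7.00 CPM in KO and 38.0 ± 5.79 CPM in WT, with a log2 fold change of -0.55 ± 0.16 and an adjusted p of 0.0808. C1qc averaged 25.2 ± 5.98 CPM in KO and 36.7 ± 6.81 CPM in WT, with a log2 fold change of -0.54 ± 0.15 and an adjusted p of 0.0750. KO library 4 was the highest KO library for each chain. With each library left out in turn, the edgeR adjusted p ran from 0.0309 to 0.198 for C1qa, from 0.0237 to 0.168 for C1qb and from 0.0237 to 0.159 for C1qc, and each chain passed in 1 of the 12 fits, the one without KO library 4. The integrin chains of complement receptor 3, Itgam and Itgb2, had log2 fold changes of -0.29 ± 0.33 and -0.50 ± 0.23 (SE), with edgeR adjusted p of 0.664 and 0.217, and Cr1l had 0.04 ± 0.06.

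Macrophage markers were set beside 7 complement genes that macrophages express, of which edgeR called 1, Cfp, against 2.64% of all genes. An unadjusted p under 0.05 was held by 5 of the 7, or 71.4%, against 21.2% of all genes. DESeq2 called 5 (Cfp, Fcna, C1qa, C1qb and C1qc), against 8.24% of all genes. All 7 log2 fold changes were negative, with a median of -0.54. Vsig4, which the edgeR test called lower in KO, is another gene that macrophages express and was not among these 7. Of 20 markers, all had a row, and 2 were called by edgeR, both lower in KO (Adgre1 and Cd5l). At an unadjusted p under 0.05 stood 12 of the 20, or 60%, against 21.2% of all genes, and DESeq2 called 11. A negative log2 fold change was held by 19 of 20, and the median was -0.52. Their summed level was 406 to 683 CPM in KO and 611 to 855 CPM in WT, and none of them was at 0 counts in any library. Adgre1, which encodes F4/80, averaged 8.33 ± 1.35 CPM in KO and 15.2 ± 4.25 CPM in WT (SD, n = 6 each), and the Kupffer cell gene Clec4f averaged 47.9 ± 16.1 CPM in KO and 77.7 ± 4.06 CPM in WT. Over Cfp, Fcna, C3ar1, C5ar1, C1qa, C1qb and C1qc, the level relative to the 12-library mean was -0.58 to 0.30 in KO and -0.06 to 0.52 in WT, and KO library 4 was the highest KO library for this set and for the markers.

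With the macrophage score as a covariate, the log2 fold change of Cfp was -0.27 ± 0.14 (SE; edgeR adjusted p = 0.483) and that of Fcna -0.36 ± 0.25 (adjusted p = 0.608). The chains of C1q then had 0.09 ± 0.08 for C1qa, -0.02 ± 0.12 for C1qb and 0.02 ± 0.08 for C1qc. The markers' level itself averaged -0.31 ± 0.32 in KO libraries and 0.31 ± 0.30 in WT libraries (SD, n = 6 each), so genotype and score cannot be fully told apart in such a fit. That fit called 0 of 15000 genes (edgeR, with 1646 at an unadjusted p under 0.05), against 396 without the score. The lost call of Cfp was thus shared by every gene called without the score. The part of macrophages in the level of Cfp was not tested.

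**Figure D5:**
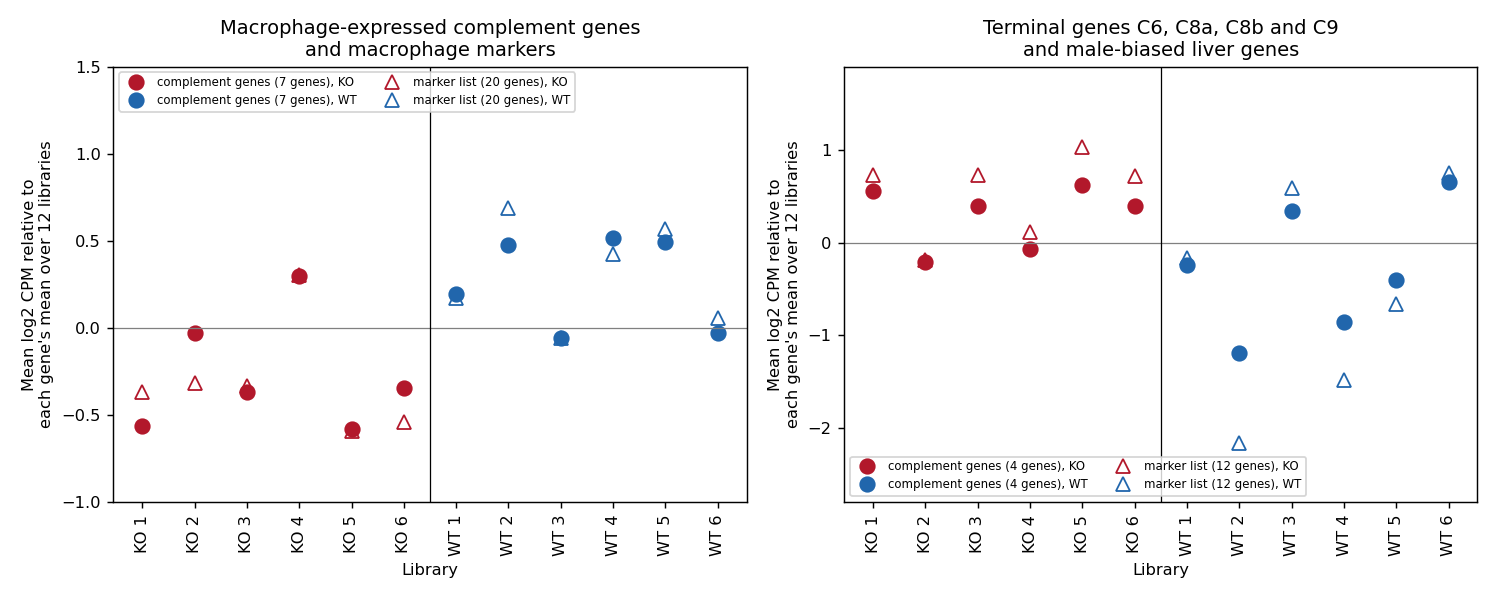
Mean log2 CPM of gene sets (vertical axis) relative to each gene's mean over 12 libraries, with KO libraries 1 to 6 left and WT libraries 1 to 6 right, filled points for complement genes and open triangles for the marker list. In the left panel, KO library 4 is the highest KO library for the 7 macrophage-expressed complement genes and for the 20 macrophage markers, and in the right panel WT libraries 2 and 4 are the lowest for C6, C8a, C8b and C9 and for the 12 male-biased genes.

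Acute phase genes are liver genes induced in inflammation, and C3 is often counted among them. Of 18 listed ones, 0 passed the edgeR test (2 at an unadjusted p under 0.05, and 1 by DESeq2), their median log2 fold change was -0.14, and their summed level was 20272 to 24798.5 CPM in KO and 18897 to 33224 CPM in WT. WT library 6 held the highest sum of these genes and also the highest level of 9 of the 35 complement genes, Cfi, Serping1 and Clu among them. Of 20 interferon-stimulated genes, 13 were called, all lower in KO, with a median log2 fold change of -0.94 and a summed level of 315 to 411 CPM in KO against 431 to 531 CPM in WT. The part of either state in the levels of C3 and Cfp was not tested.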

How the data were processed

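Poly(A) RNA of 6 KO and 6 WT livers was measured as described, with groups and replicate numbers taken from the sample titles. The authors deposited raw read counts (whole numbers, 1 column per library), not normalized, per the file headers, and beside them their own log2 fold change, test score, p-value and adjusted p-value. The build GRCm38 and the tools FastQC, Trimmomatic, HISAT2, SAMtools, featureCounts and DESeq2 come from the submitters' processing notes, which hold no versions. Annotation, strand setting and handling of shared reads are items not given in the sources used here.

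Of 15344 rows, the first per gene was kept (15140 genes); the 204 repeated rows held the same counts. The 30 pairs of libraries within a group had chi-square values of at least 38.1 per degree of freedom, so none was a repeat. KO was tested against WT in edgeR 4.0.16 under R 4.3.3 (TMM, filterByExpr, robust quasi-likelihood F test, two-sided, 15000 genes; Benjamini-Hochberg, threshold 0.05). Each SE is the absolute unshrunken log2 fold change divided by the square root of F. CPM are TMM-scaled, and TPM used exon lengths of GENCODE M21 for 15127 genes. On simulated counts (15023 genes tested), planted changes were recovered in 49.4% (1.5-fold), 80.7% (2-fold) and 96.8% (4-fold) of cases, with 5.19% of calls false.

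Named were all 35 members, related genes that passed the test and 8 fixed related genes (C1qa, C1qb, C1qc, Cr1l, Vsig4, Itgam, Itgb2 and 1 that is not reported here). The marker genes named, C4a and the grouping of C6, C8a, C8b and C9 were chosen after values were seen. The members and lists were chosen with earlier results of these data known. Cd55b, Cr2, Csmd1 and Fcnb were not analysed here. The alternatives were each library left out, a macrophage score, a replicate block, a filter of 1 CPM in 6 libraries or none, scaling by RLE or by totals, and DESeq2 1.42.0. Summed lists were also made for neutrophil, T and NK, B, stellate, sinusoidal endothelial, mesothelial and female-biased genes.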

Additional observations from a re-analysis of the deposited data

Results flagged for a closer look

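Among 86 groups of 6 libraries examined, 2 held a library far from the others, against 4.3 that chance would give at 1 in 20. Cpn2, the regulatory subunit of carboxypeptidase N, held 288 CPM in KO library 2, against 371 to 415 CPM in the other KO libraries (gap over range 0.693). Cd55 held 6.22 CPM in WT library 6, against 9.51 to 10.5 CPM in the other WT libraries (gap over range 0.805).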

How the results depend on the processing

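The count of complement genes called was 2 with scaling by RLE or by totals and with the CPM filter or none. It was 4 with DESeq2, 1 with a replicate block (Cfp), and 0 with WT libraries 2 and 4 left out (6 at an unadjusted p under 0.05), and it ran from 0 to 3 with each library left out (0 without KO library 6, WT library 2, WT library 4 or WT library 5, with 6 to 8 at an unadjusted p under 0.05). The count over all genes, 396 in the report, was 257 with total counts only, 1236 with DESeq2, 7 with WT libraries 2 and 4 left out, 0 with the macrophage score (1646 at an unadjusted p under 0.05), and 25 to 700 with each library left out. The count of related genes, 1 in the report, was 4 with DESeq2, 0 with WT libraries 2 and 4 left out (4 at an unadjusted p under 0.05), 0 to 4 with each library left out, and 1 with a replicate block, C1qb in place of Vsig4. The deviations of same-numbered KO and WT libraries had correlations of -0.20 to 0.36, best with the own number for 2 of 6. No label pairs the libraries, and no test compared these values with chance, so pairing by number is undecided. With WT libraries 2 and 4 left out, the adjusted p was 0.212 for C3 and 0.191 for Cfp, and signs turned for Colec11 (0.090), C8a (-0.13), Clu (-0.022) and Vtn (-0.0010). With the macrophage score, signs turned for C3ar1 (0.47), C5ar1 (0.57), C1qa (0.09) and C1qc (0.015). With each library left out, log2 fold changes crossed 0 for C1ra (-0.070 to 0.052), Masp1 (-0.099 to 0.010), Colec10 (-0.0091 to 0.17), Colec11 (-0.13 to 0.071), Cfb (-0.0091 to 0.090), C7 (-0.10 to 0.94) and Cd59a (-0.0046 to 0.086). The cause of these changes was not tested. Of 822 gene values under alternatives, 762 kept direction and side of the threshold, 26 lost the call, 12 gained it and 22 turned sign, and 29 of 43 genes never turned. Most of these values belong to genes that were not called. Only a called gene can lose a call, and the 26 losses were those of C3 in 11 of 19 alternatives, Cfp in 6 of 20 and Vsig4 in 9 of 19. Genes near or under 1 CPM (C7, C5ar1, Cd46) are limited by depth, and differences under 1.5-fold were not planted in the simulation.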

Other observations

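Markers of other cell types and states were read in the same fit. Of 6 neutrophil markers with a row, 0 passed the edgeR test (3 at an unadjusted p under 0.05, and 1 by DESeq2), with a median log2 fold change of -0.67. Of 6 B cell markers, 0 passed (1 at an unadjusted p under 0.05, and 0 by DESeq2), with a median of -0.53. Of 5 tested T and NK cell markers, 1 was called, lower in KO (Lck), with a median of -0.96. Stellate cell markers had 0 of 11 called (1 at an unadjusted p under 0.05, and 1 by DESeq2) and a median of 0.12, and sinusoidal endothelial markers had 0 of 10 called (1 and 0 by the same measures) and a median of -0.14. Mesothelial markers had 0 of 6 called (0 at an unadjusted p under 0.05, and 0 by DESeq2) and a median of 0.23. Of 5 tested genes that are higher in female than in male mouse liver, 1 was called, lower in KO, and the median was -2.38. The part of these cells and states in the complement genes was not tested.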
